A study of Mus musculus with 8 samples.

Results

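Ketone bodies are made mainly in the liver and are taken up by the brain as a fuel when glucose runs short. Inside mitochondria they are oxidized by D-beta-hydroxybutyrate dehydrogenase, succinyl-CoA:3-ketoacid CoA transferase and acetyl-CoA acetyltransferase in turn. Long-chain fatty acids enter mitochondria through the carnitine shuttle and are shortened by beta-oxidation, a route that the brain uses little and mostly in astrocytes. The genes described here are the 3 enzymes of ketone body use (*Bdh1*, *Oxct1* and *Acat1*), 3 enzymes of fatty acid entry and oxidation (*Cpt1a*, *Cpt2* and *Acadm*), and 2 genes that the fasting-related nuclear receptors PPAR induce in many tissues (*Pdk4* and *Angptl4*). They were taken by symbol with all their probes. They were selected on measured values, with the comparison between BaP-exposed and control mice known, so that comparison is given below as a description without a test. All 8 genes passed the filter on dim probes, out of 15090 named genes tested, and 12 of the 32600 tested probes were theirs.

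Benzo[a]pyrene (BaP), a polycyclic aromatic hydrocarbon that activates the aryl hydrocarbon receptor, was given in olive oil by gavage to male Muta Mouse animals, a transgenic strain that carries a bacterial reporter gene for mutation. The exposed mice received 70 mg/kg bw on each of 3 days, and the control mice received olive oil alone. All were 9 weeks old, were housed singly with chow freely available, and were sampled 24 hr after the last dose. Hippocampal RNA of 4 of the 5 mice of each group was hybridized on 2-color arrays, with hippocampus in Cy5 and a universal mouse reference RNA in Cy3, without a dye swap. Each value below is the log2 ratio of hippocampus over reference after loess normalization within the array. An olive oil gavage was common to both groups, and no mouse without a gavage was included. The whole hippocampus was used, so that fewer cells of a type and less RNA per cell cannot be told apart.

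The labels contradict themselves for 4 of the 8 arrays, those of slide row 2, where a sample's title gives one group and its source name the other. Titles were followed here, because the mouse ID numbers run with them. Values under the source names are given beside many of the results that change with them. The markers of hippocampal neurons were all above the reference in control mice (10 of 10 called higher, median log2 ratio 3.54), as were all 7 oligodendrocyte markers and 8 of 9 astrocyte markers. Outlier spots numbered 1483 on the array of control mouse 1, against 310 to 371 on each of the others. In Cy5, 56.6% to 67.4% of spots per array stood well above background. Choroid plexus markers differed widely between mice of 1 group, and erythroid markers were lower in BaP-exposed mice. Their values are given beside the genes they moved with.

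With the brightest probe standing for each gene, 7 were higher and 1 was lower in BaP-exposed mice, and their median difference was 0.05 on the log2 scale, against -0.00029 for all named genes tested, of which 49.9% were higher. A probe was called where limma gave it a Benjamini-Hochberg adjusted p of 0.05 or less and it differed by at least 1.5-fold. Of the 12 probes, 0 were called, where 0.0092% of all tested probes and 0.0199% of named genes were. No gene reached 1.5-fold: the differences lay between -0.49 for *Angptl4* and 0.40 for *Cpt2*. The groups did not overlap for 3 of the 12 probes, all of them *Bdh1* and higher in BaP-exposed mice, and for 0 in the lower direction. Over all tested probes 2.52% were higher and 2.55% lower without overlap, and over named genes 2.73% and 2.56%. Since the genes were selected on this comparison, nothing is read from these counts. Grouped by the source names, 0 of the 12 probes were without overlap and the median difference of the 8 genes was -0.03. By the titles, without BaP mouse 1 the median difference of the 8 genes was 0.12, and without BaP mouse 3 it was 0.02. With the arrays centered on their medians in place of loess it was 0.32, where that of all tested probes was 0.17.

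**Figure D1:**
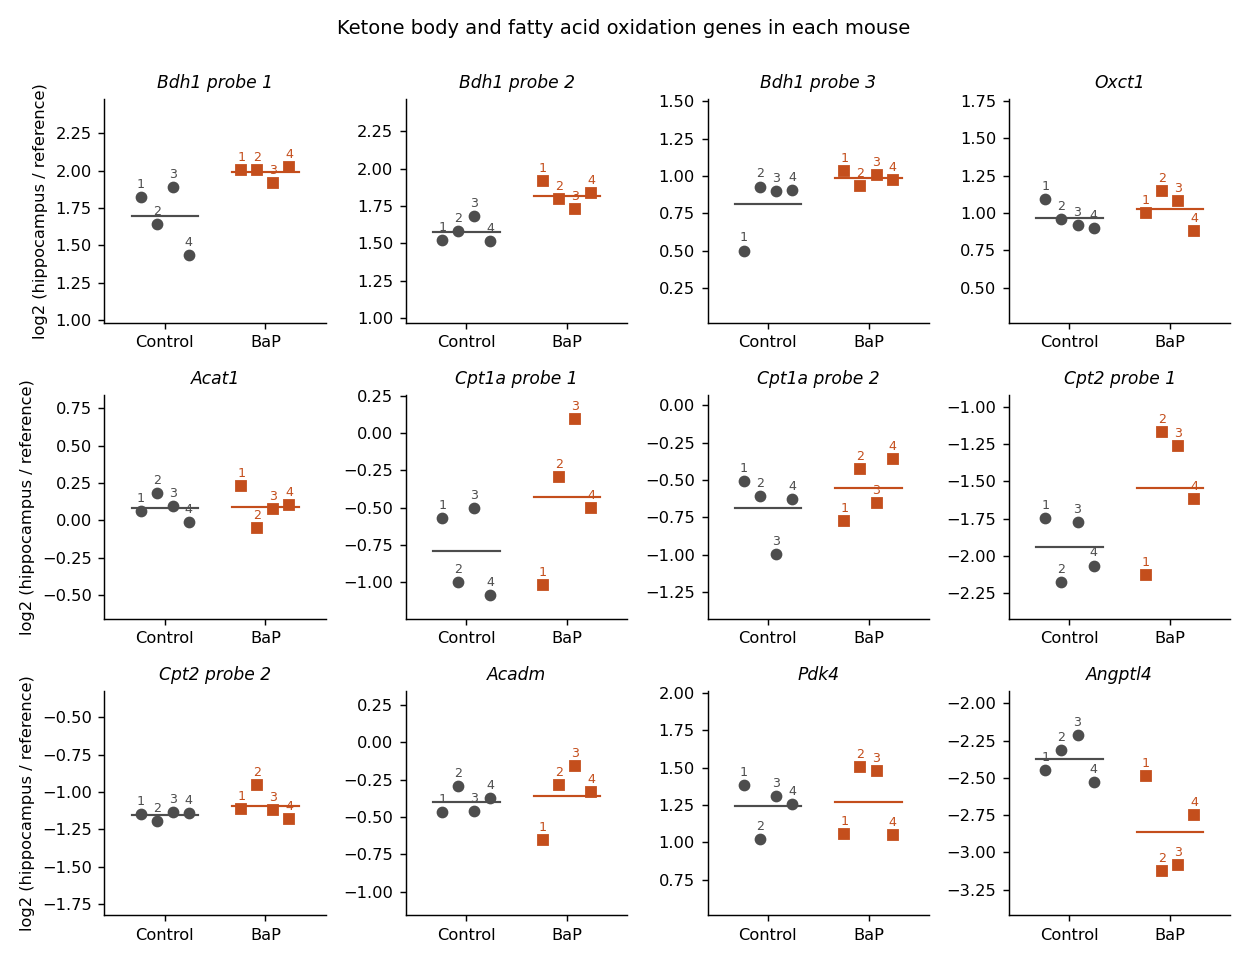
Log2 ratio of hippocampus over reference RNA in each of the 4 control mice (circles) and 4 BaP-exposed mice (squares), 1 panel per probe. Numbers are mouse numbers, horizontal lines are group means, and every panel spans the same height on the log2 scale. The groups are apart for the 3 *Bdh1* probes, and *Angptl4* is lower in 3 of the 4 exposed mice.

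*Bdh1* encodes the mitochondrial D-beta-hydroxybutyrate dehydrogenase, the enzyme that turns the main circulating ketone body into acetoacetate. On its brightest probe the log2 ratios were 1.82, 1.64, 1.89 and 1.44 in control mice 1 to 4 and 2.001, 2.01, 1.92 and 2.02 in BaP-exposed mice 1 to 4. Every exposed mouse was above every control mouse, with a gap of 0.03 between the nearest of them. The means were 1.70 ± 0.20 and 1.99 ± 0.05 (SD, n = 4 each), a difference of 0.29 (standard error 0.10), or 1.22-fold.

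The second *Bdh1* probe gave 1.52, 1.58, 1.68 and 1.52 in control mice and 1.92, 1.797, 1.73 and 1.84 in exposed mice, a difference of 0.24 (standard error 0.08). Again the groups did not overlap, with a gap of 0.05. The third gave 0.50, 0.93, 0.90 and 0.91 in control mice against 1.03, 0.93, 1.01 and 0.97 in exposed mice, a difference of 0.18. Here control mouse 1 lay far below the rest and set most of the difference, which was 0.07 without it, and control mouse 2 and BaP mouse 2 were 0.00099 apart. On this probe the groups overlapped with Agilent's processed signals, median centering, the authors' log2 ratios, outlier spots kept or Cy5 alone.

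Both channels were looked at separately for *Bdh1*, each scaled to the 75th percentile of its array. In Cy5 alone the difference was 0.29 on the first probe and 0.24 on the second, while the reference channel differed by 0.05 and 0.02 between the same arrays. On the third probe the difference in Cy5 was 0.11 and that in the reference channel -0.19, so the reference channel differed more than the hippocampus did. Within slide row 1 the first probe differed by 0.27 and within row 2 by 0.31. Grouped by the source names instead, the first probe differed by -0.02, the second by 0.06 and the third by 0.09.

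The first and second *Bdh1* probes followed each other over the 8 arrays (Pearson r 0.83), and the third followed the first less closely (r 0.19). After each group's mean was taken out, the first had r 0.53 with the second and -0.42 with the third. The glucocorticoid-induced genes had a list mean that followed the first probe at r 0.78, and the erythroid markers at r -0.70. Of 6 erythroid markers tested, 5 were lower in exposed mice without overlap, where 2.56% of all named genes were. In limma's test 2 of the markers were called lower, out of 3 calls over all probes (lowest adjusted p = 0.00233). Their list mean was 3.81 to 4.01 in control mice and 2.89 to 3.20 in exposed mice. Of the 6, 0 were without overlap under the source names. The glucocorticoid list mean was 0.14 to 0.49 in control mice and 0.59 to 0.75 in exposed mice. Both lists thus separated the groups as *Bdh1* did, and their part in its difference was not tested.

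RefSeq places a start of *Bdh1* on chr16 of GRCm38.p6. The 250 bases before it, at chr16:31422047-31422296 on the plus strand, are shown because BaP acts through a receptor that binds the core letters GCGTG of the dioxin response element, read on either strand and here in capitals as CACGC. It stands once, with its first base 29 bases before the start.
*Bdh1*: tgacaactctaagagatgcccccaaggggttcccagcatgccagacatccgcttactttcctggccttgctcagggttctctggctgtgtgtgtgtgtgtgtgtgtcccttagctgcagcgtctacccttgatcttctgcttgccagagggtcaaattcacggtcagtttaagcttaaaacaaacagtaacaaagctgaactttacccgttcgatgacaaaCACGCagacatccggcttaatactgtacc
The same letters were found in 28.2% of 32851 RefSeq promoter windows of this length, not in the window before a second *Bdh1* start nor in that of *Oxct1*, but once each in those of *Acadm* and *Pdk4*. A match of 5 letters is a description of the sequence and not a binding site.

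*Oxct1* encodes succinyl-CoA:3-ketoacid CoA transferase, which activates acetoacetate and which the liver lacks. Its log2 ratios were 1.09, 0.96, 0.92 and 0.90 in control mice and 0.997, 1.15, 1.08 and 0.88 in exposed mice. The groups overlapped through most of their range, and the difference of 0.06 was smaller than its standard error of 0.09. Over the 8 arrays *Oxct1* had r 0.91 with the oligodendrocyte markers and -0.68 with the astrocyte markers. The part of these cell types was not tested. *Acat1*, the mitochondrial acetyl-CoA acetyltransferase that splits acetoacetyl-CoA, had ratios of 0.06, 0.18, 0.10 and -0.01 in control mice and 0.23, -0.05, 0.08 and 0.10 in exposed mice. Its means differed by 0.0054, and both the highest and the lowest of the 8 values were those of exposed mice. The 3 enzymes of 1 pathway therefore did not have 1 pattern: over the 8 arrays *Bdh1* had r 0.36 with *Oxct1* and 0.17 with *Acat1*, and *Oxct1* had r -0.32 with *Acat1*.

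*Cpt1a* encodes carnitine palmitoyltransferase 1A of the outer mitochondrial membrane, the step at which malonyl-CoA limits fatty acid entry. Its brightest probe was printed 10 times on each array. The ratios were -0.57, -0.995, -0.50 and -1.09 in control mice and -1.02, -0.29, 0.10 and -0.50 in exposed mice. Exposed mouse 1 lay near the lowest control mice, exposed mouse 4 level with control mouse 3, and exposed mice 2 and 3 above all others.

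The repeated spots of this *Cpt1a* probe agreed within an array, with an SD between 0.06 and 0.10 over the 7 to 10 spots left after outlier removal. The SD between mice was 0.30 in the control group and 0.47 in the exposed group, so the spread between mice was several times that between spots. The group means differed by 0.36 with a standard error of 0.22, by 0.56 without BaP mouse 1 and by 0.18 without BaP mouse 3. The second *Cpt1a* probe, printed once, differed by 0.13 (standard error 0.13), and had r 0.16 with the first over the 8 arrays.

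*Cpt2* encodes carnitine palmitoyltransferase 2 of the inner membrane, which regenerates acyl-CoA in the matrix. On its brightest probe the ratios were -1.74, -2.18, -1.78 and -2.06 in control mice and -2.13, -1.17, -1.26 and -1.62 in exposed mice. Exposed mice 2, 3 and 4 were above every control mouse and exposed mouse 1 was within the control range. The difference was 0.40 (standard error 0.20), 0.59 without BaP mouse 1 and 0.27 without BaP mouse 2. Within slide row 1 it was 0.31 and within row 2 it was 0.48, while that of *Cpt1a* was 0.13 and 0.59. Under the source names both turned in sign, to -0.08 for *Cpt2* and -0.23 for *Cpt1a*. The second *Cpt2* probe, well above background on 7 of the 8 arrays, differed by 0.06 (standard error 0.08) in the log2 ratio and by 0.40 in Cy5 alone.

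The brightest probes of *Cpt1a* and *Cpt2* varied together over the mice, with Pearson r 0.92 and Spearman rho 0.81 over the 8 arrays, and r 0.90 after each group's mean was taken out. Both followed the markers of the choroid plexus, the epithelium that makes cerebrospinal fluid and lies against the hippocampus. The mean log2 ratio of the 12 choroid plexus markers was 3.80, 2.79, 4.27 and 2.41 in control mice and 1.87, 4.96, 5.30 and 4.40 in exposed mice. BaP mouse 1 was thus the lowest of all 8, and the other exposed mice were the highest. All 12 markers had a higher mean in exposed mice with a median difference of 0.84, 0 of them were without overlap, and 11 of 12 were above the reference in control mice. Under the source names all 12 had a lower mean, with a median difference of -0.62.

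Against this list mean, *Cpt1a* had Pearson r 0.95 and Spearman rho 0.95, and *Cpt2* had 0.93 and 0.88, over 8 arrays. After each group's mean was taken out the r was 0.95 for *Cpt1a* and 0.94 for *Cpt2*. With the 2 mice farthest from the median of the markers left out, BaP mouse 1 and control mouse 4, it was 0.96 and 0.95 over 6 arrays. The second probes had r 0.25 for *Cpt1a* and 0.38 for *Cpt2*. The part of the choroid plexus in the *Cpt1a* and *Cpt2* differences was not tested. The other members had r between -0.63 for *Angptl4* and 0.67 for *Pdk4* with the same markers.

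**Figure D2:**
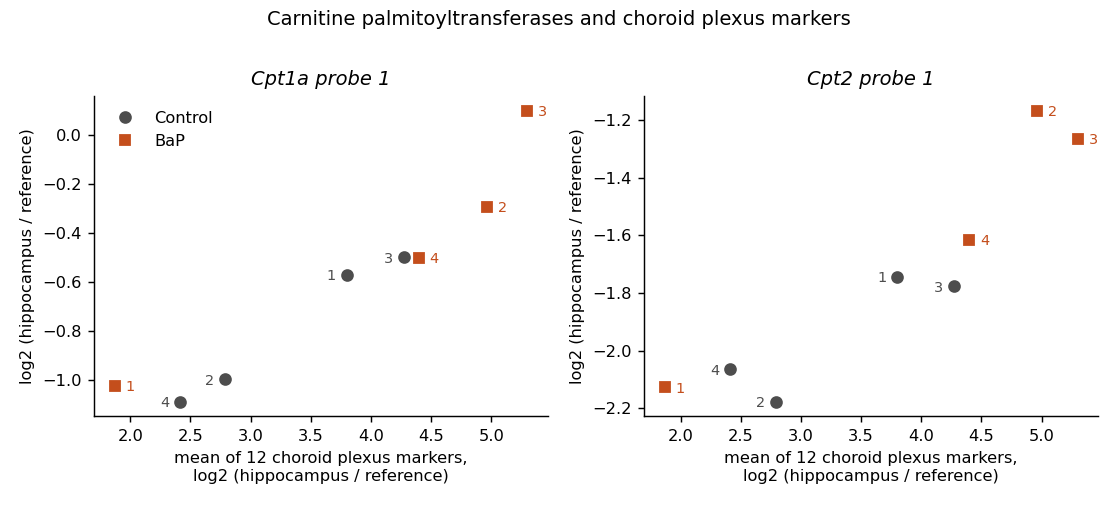
Log2 ratio of the brightest *Cpt1a* probe (left) and *Cpt2* probe (right) in each mouse against the mean log2 ratio of 12 choroid plexus markers in the same mouse. Circles are control mice, squares are BaP-exposed mice, and numbers are mouse numbers. Mice low in the markers, such as BaP mouse 1 at 1.87, are low in both genes, and BaP mice 2 and 3 are high in all.

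The windows before a RefSeq start of *Cpt1a*, at chr19:3323051-3323300 on the plus strand, and of *Cpt2*, at chr4:107923590-107923839 on the minus strand, are shown because these genes varied together. That of *Cpt1a* lies inside the annotated gene, so it is not the sequence before the gene's first base. The capitals mark the GC box, GGGCGG or its reverse complement CCGCCC, which stands at 2 places in each.
*Cpt1a*: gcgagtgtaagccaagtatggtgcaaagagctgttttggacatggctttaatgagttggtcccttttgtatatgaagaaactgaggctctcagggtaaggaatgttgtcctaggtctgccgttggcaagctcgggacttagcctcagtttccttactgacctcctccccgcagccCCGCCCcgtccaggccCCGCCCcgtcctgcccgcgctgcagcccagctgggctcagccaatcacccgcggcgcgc
*Cpt2*: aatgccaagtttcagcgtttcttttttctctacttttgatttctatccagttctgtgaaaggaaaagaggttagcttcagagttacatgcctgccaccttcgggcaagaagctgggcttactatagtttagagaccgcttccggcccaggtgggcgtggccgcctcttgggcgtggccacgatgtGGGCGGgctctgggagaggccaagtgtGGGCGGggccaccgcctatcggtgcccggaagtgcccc
At least 1 GC box was found in 32.7% of all windows of this length. The letters GCGTG were found at 2 places in the *Cpt2* window and at 0 in that of *Cpt1a*. The nuclear receptor half-site AGGTCA, searched on both strands, was found once in the *Cpt1a* window, as TGACCT with its first base 94 bases before the start, once in that of *Acadm*, not in that of *Cpt2*, and in 14.0% of all windows.

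*Acadm* encodes the medium-chain acyl-CoA dehydrogenase, the first enzyme of the beta-oxidation cycle for medium-chain fatty acids. Its ratios were -0.47, -0.29, -0.46 and -0.37 in control mice and -0.65, -0.29, -0.16 and -0.34 in exposed mice. The lowest and the highest value were both those of exposed mice, and the difference of 0.04 was smaller than its standard error of 0.11. It was -0.13 under the source names. *Acadm* thus did not share the difference seen on the brightest *Cpt1a* and *Cpt2* probes, though its r with them over the arrays was 0.59 each.

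*Pdk4* encodes pyruvate dehydrogenase kinase 4, which shuts pyruvate out of the mitochondrial fuel supply in fasting and is induced by PPAR and by glucocorticoids. Its ratios were 1.38, 1.02, 1.31 and 1.26 in control mice and 1.06, 1.51, 1.48 and 1.05 in exposed mice. The highest values were those of exposed mice 2 and 3, while exposed mice 1 and 4 were just above control mouse 2, the lowest of the 8, and the means differed by 0.03 (standard error 0.13). The sign turned when BaP mouse 2 was left out, to -0.05.

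*Angptl4* encodes angiopoietin-like 4, a secreted inhibitor of lipoprotein lipase that PPAR and glucocorticoids induce. Its ratios were -2.45, -2.31, -2.21 and -2.53 in control mice and -2.49, -3.13, -3.08 and -2.75 in exposed mice. Exposed mice 2, 3 and 4 were below every control mouse, and exposed mouse 1 was within the control range. The means were -2.37 ± 0.14 and -2.86 ± 0.30 (SD, n = 4 each), a difference of -0.49 (standard error 0.14). Leaving out BaP mouse 1 gave -0.61, and the difference was -0.42 within slide row 1 and -0.55 within row 2. With median centering it was -0.19 (standard error 0.18), on a scale where all tested probes had a median of 0.17. Under the source names it turned in sign, to 0.06. Of named genes tested, 2.62% differed by more than *Angptl4* in either direction, and 10.2% by more than *Bdh1*.

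*Angptl4* ran against *Cpt2* over the arrays (r -0.84), and it had r 0.76 with the erythroid markers and -0.83 with the oligodendrocyte markers. BaP mouse 1, in which *Angptl4* was within the control range, had an erythroid list mean of 2.99, within the range of the other exposed mice. The oligodendrocyte markers overlapped between the groups, at 4.14 to 4.44 in control mice and 4.26 to 4.61 in exposed mice. With these markers *Oxct1* had r 0.91, *Cpt2* 0.76 and *Pdk4* 0.72. The part of either cell type in the *Angptl4* difference was not tested.

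**Figure D3:**
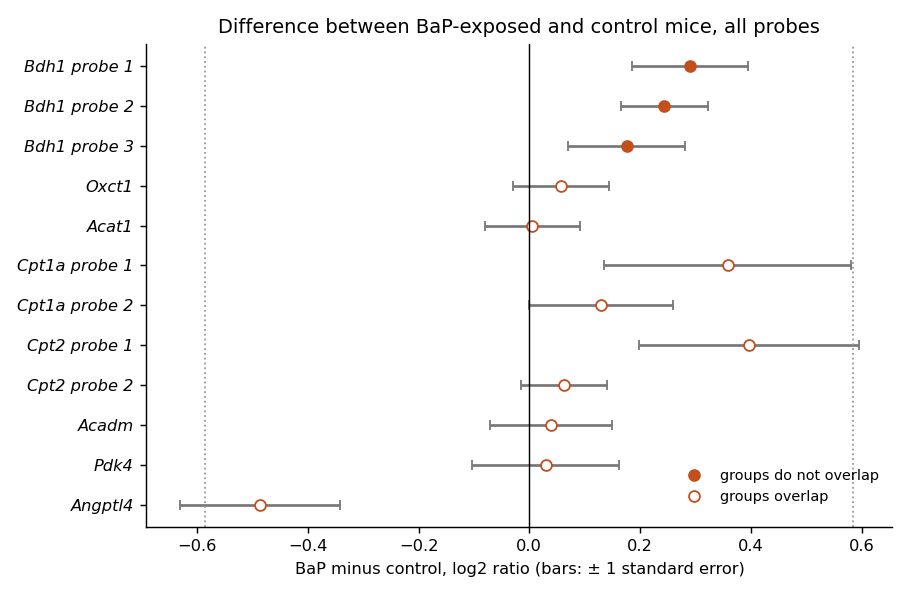
Difference between the means of BaP-exposed and control mice on the log2 scale for the 12 probes, with bars of 1 standard error. Filled points are probes whose groups do not overlap, open points those whose groups do, and dotted lines mark 1.5-fold. No probe reaches a dotted line, and the 3 filled points are the *Bdh1* probes.

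Control hippocampus was compared with the reference RNA, a commercial pool of mouse RNA, as a measure that the selection of the genes had not used. The ratio of each gene in the 4 control mice was tested against 0 with limma, with adjustment over all tested probes. By their brightest probes 3 of the 8 genes were called higher than the reference and 3 lower, and 2 were not called. Of all named genes 34.9% were called higher and 27.2% lower. A single dye orientation was used, so that a dye effect and a true difference from the reference cannot be told apart in 1 probe.

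The enzymes of ketone body use were at or above the reference. *Bdh1* was 3.24-fold higher in control hippocampus (log2 ratio 1.70, standard error 0.07, limma adjusted p = 2.87e-09), and its other probes gave 2.98-fold and 1.75-fold. *Oxct1* was 1.96-fold higher (limma adjusted p = 6.7e-08), though it was at -0.26 when the arrays were centered on their medians instead of by loess, a change that moved the median of all tested probes from 0.11 to -0.13. *Acat1* was not called, at a log2 ratio of 0.08 (limma adjusted p = 0.224), and at -0.70 with that centering.

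The enzymes of fatty acid entry were below the reference. *Cpt2* was lower by 3.84-fold on its brightest probe (log2 ratio -1.94, limma adjusted p = 2.05e-07) and by 2.23-fold on the other. *Cpt1a* was lower by 1.73-fold (limma adjusted p = 0.000792) and by 1.61-fold on its second probe. *Acadm*, at a log2 ratio of -0.40, passed the p (limma adjusted p = 0.000665) and not the fold change. With Agilent's own processed signals *Acadm* was at -0.61, past the fold change, and *Oxct1* at 0.57, short of it. With median centering *Acadm* was at -1.26 and called lower (limma adjusted p = 1.51e-07), and 7 of the 8 genes were called in either direction. The relatives of *Cpt1a*, named here after their values were seen, stood on either side: the muscle form *Cpt1b* at -0.87 and the neuronal form *Cpt1c* at 2.45.

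The PPAR target genes stood apart from each other. *Pdk4* was 2.37-fold higher than the reference (limma adjusted p = 3.06e-07) and *Angptl4* was lower by 5.19-fold (limma adjusted p = 2.57e-09), the farthest from the reference of the 8 genes. These ratios compare each gene with its own level in the pool and do not rank the genes by abundance.

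**Figure D4:**
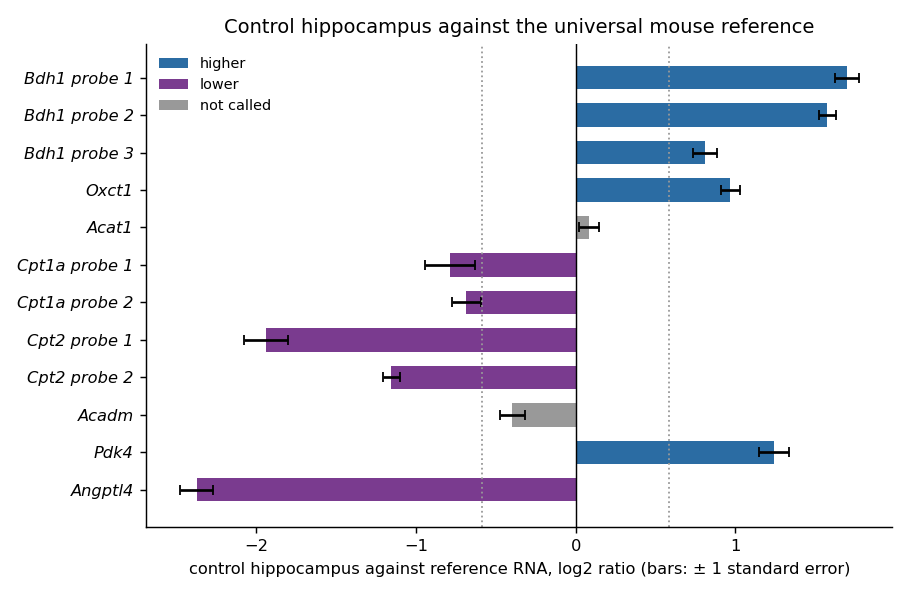
Mean log2 ratio of control hippocampus over the reference RNA for the 12 probes, with bars of 1 standard error from limma. Means are over the 4 control mice, and standard errors are from the fit to all 8 arrays. Blue bars are called higher, purple bars lower and grey bars not called, and dotted lines mark 1.5-fold. *Bdh1*, *Oxct1* and *Pdk4* are above the reference, and *Cpt1a*, *Cpt2* and *Angptl4* below it.

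The genes whose log2 ratios were most like those of each member over the 8 arrays were sought among the 14873 named genes with a value on every array. *Cpt1a* had the closest, *Col8a2* (a collagen chain) at r 0.996 and *Tcn2* (the vitamin B12 carrier transcobalamin) at 0.994, with BaP minus control differences of 1.02 and 0.53. *Cpt2* was nearest to *Fkbp9* (r 0.98) and *Sil1* (0.98), *Bdh1* to *Osbpl8* (0.95) and *Gtf2b* (0.94), and *Oxct1* to *Lrrn1* and *Ankrd28* (0.96 each). *Acat1* was nearest to *Mff* (0.93) and *BC049715* (0.91), *Acadm* to *Zfp953* (0.97) and *Scamp2* (0.94), *Pdk4* to *Sned1* (0.98) and *Pid1* (0.95), and *Angptl4* to *Inafm1* and *Cmip* (0.97 each). These are the highest of many correlations over few arrays and are given without a p.

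Beyond these 8 genes, 122 genes in 9 lists of the surrounding pathways were listed by function, and 113 of them were tested. In exposed mice 73 had a higher and 40 a lower mean, and the median difference was 0.06. The groups did not overlap for 7 in the higher direction (6.19%, against 2.73% of all named genes) and 2 in the lower (1.77%, against 2.56%). In limma's test 0 of the 113 were called, with a lowest adjusted p of 0.279, and 15 (13.3%) had an unadjusted p under 0.05, as did 9.46% of all named genes. Under the source names 49 of the 113 were higher (median -0.02), 3 were higher and 2 lower without overlap, and 0 were called. Of the list genes named below, 0 were without overlap with that grouping. For a single gene the smallest p that an exact 2-sided permutation test over the 70 assignments of 4 and 4 mice allows is 0.0286, which every gene without overlap reaches.

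Among ketone body genes other than the members, 6 of 10 were higher (median 0.12), and 2 of 10 (median -0.05) under the source names. *Aacs*, a cytosolic enzyme that activates acetoacetate for lipid synthesis, was lower without overlap, at 0.40 ± 0.07 in control and 0.23 ± 0.13 in exposed mice (SD, n = 4 each), with a limma adjusted p = 0.615. Its difference was -0.17 by the titles and -0.05 under the source names. Of the carnitine shuttle and malonyl-CoA genes 5 of 9 were higher (median 0.05), with 0 without overlap, and 4 of 9 (median -0.0078) under the source names. The widest difference there was that of *Acacb*, which makes malonyl-CoA at the mitochondrion, at 0.57 (standard error 0.41, limma adjusted p = 0.688), with BaP mouse 1 at -1.64, beside the lowest control mouse at -1.65. Its difference was -0.71 under the source names.

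In mitochondrial beta-oxidation 19 of 21 genes were higher in exposed mice, with a median of 0.14, and 5 of 21 under the source names, with a median of -0.05. *Acad8*, an acyl-CoA dehydrogenase of valine breakdown, was at 0.69 ± 0.09 in control and 1.08 ± 0.25 in exposed mice, and *Eci2*, an enoyl-CoA isomerase, at -0.87 ± 0.05 and -0.65 ± 0.09 (SD, n = 4 each). Their groups did not overlap, with limma adjusted p = 0.499 and 0.52. Under the source names *Acad8* differed by 0.01 and *Eci2* by 0.07, against 0.39 and 0.21 by the titles. The mean of this list followed the brightest probes of *Cpt1a* (r 0.94) and *Cpt2* (r 0.96), the genes that also followed the choroid plexus markers.

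Of the peroxisomal beta-oxidation genes 10 of 12 were higher (median 0.11) and 0 were without overlap, and 3 of 12 were higher (median -0.05) under the source names. The list mean had r 0.85 with *Cpt1a* and 0.89 with *Cpt2*, and was 0.13 in BaP mouse 1 and 0.15 to 0.44 in the other exposed mice. *Acox2*, a peroxisomal oxidase of branched chains and bile acid precursors, had the widest difference, 0.56 (standard error 0.39, limma adjusted p = 0.682), and -0.05 under the source names. In fatty acid activation and uptake 3 of 11 genes were higher (median -0.09), and 8 of 11 (median 0.02) under the source names. The widest difference was that of *Fabp7*, a fatty acid binding protein of astrocytes and neural progenitors, at -0.42 (standard error 0.16, limma adjusted p = 0.526), and 0.0013 under the source names. *Cd36*, the fatty acid translocase, did not pass the filter on dim probes.

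The lipoprotein lipase and lipolysis list, to which *Angptl4* is nearest in function, had 9 of 13 genes higher (median 0.16), and 4 of 13 (median -0.06) under the source names. *Plin4*, a coat protein of lipid droplets, was at -1.71, -2.001, -2.15 and -2.13 in control mice and at -0.97, -0.95, -1.001 and -1.60 in exposed mice. The groups did not overlap, and its difference of 0.87 (standard error 0.16, limma adjusted p = 0.279) was the widest over the 9 lists, opposite in sign to that of *Angptl4*. *Plin4* differed by 0.03 under the source names and its groups overlapped. Of the pyruvate dehydrogenase genes around *Pdk4*, 8 of 12 were higher (median 0.04) and 0 were without overlap. Under the source names 10 of 12 were higher (median 0.09), with 2 higher and 1 lower without overlap. The pyruvate carrier subunit *Mpc2* had the widest difference, 0.33 (standard error 0.13, limma adjusted p = 0.541, exact permutation p = 0.0571).

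Of the PPAR, PGC-1 and FOXO regulators 5 of 14 were higher (median -0.07). *Klf15*, a transcription factor of fasting metabolism that glucocorticoids induce, was higher without overlap, at 0.66 ± 0.12 in control and 0.87 ± 0.06 in exposed mice (SD, n = 4 each; limma adjusted p = 0.538). It differed by 0.21 by the titles and by -0.01 under the source names.

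Among other PPAR target genes 8 of 11 were higher (median 0.07), 3 of them without overlap, where 2.73% of all named genes were. *Ucp3* and *Ucp2*, mitochondrial carriers, differed by 0.56 (standard error 0.16, limma adjusted p = 0.49) and 0.52 (standard error 0.14, limma adjusted p = 0.478). *Txnip*, an arrestin-like protein that limits glucose uptake, differed by 0.43 (standard error 0.11, limma adjusted p = 0.462). Under the source names *Ucp3* differed by 0.14, *Ucp2* by 0.09 and *Txnip* by 0.0088. *Acot1*, an acyl-CoA thioesterase named after its values were seen, was lower without overlap, with a difference of -0.27 (standard error 0.08, limma adjusted p = 0.497). The PPAR targets among the members, *Pdk4* at 0.03 and *Angptl4* at -0.49, stand beside a list that held genes of either sign.

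Glucocorticoid-induced genes were listed apart, since *Pdk4* and *Angptl4* are also induced by these hormones. In this list 13 of 15 were higher (median 0.34), 6 of them without overlap, where 2.73% of all named genes were. In limma's test 0 of the 15 were called, with a lowest adjusted p of 0.147. By the same test 9 had an unadjusted p under 0.05, as did 9.46% of all named genes. The median was 0.08 under the source names, and 1 gene was without overlap. *Sgk1*, a kinase, had the widest difference, 1.27 (standard error 0.22, limma adjusted p = 0.26). *Nfkbia*, the NF-kappa-B inhibitor, differed by 0.78 (standard error 0.11, limma adjusted p = 0.147) and *Hif3a*, a hypoxia-inducible factor subunit, by 0.69 (standard error 0.20, limma adjusted p = 0.49). Under the source names *Sgk1* differed by 0.31, *Nfkbia* by 0.08 and *Hif3a* by 0.23.

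**Figure D5:**
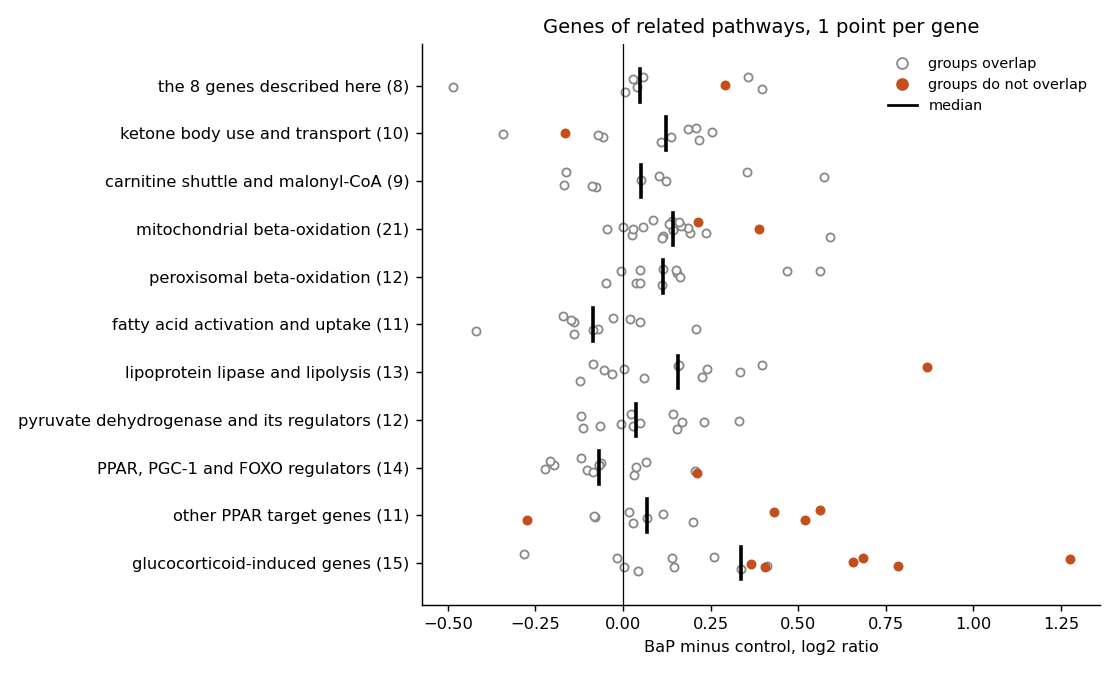
Difference between BaP-exposed and control mice on the log2 scale for each tested gene of 10 pathway lists and for the 8 genes described here, with the number of genes in parentheses. Filled points are genes whose groups do not overlap, open points the others, and black lines the list medians. The medians lie between -0.09 and 0.16, except for that of the glucocorticoid-induced genes at 0.34.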

How the data were processed

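Hippocampal RNA of 4 control and 4 BaP-exposed mice was measured on 8 two-color Agilent arrays of 1 slide. The authors deposited the spot intensities of the Feature Extraction scanner output, a log10 ratio of Cy5 over Cy3 per the file headers, which was not used, and a table of log2 ratios that the authors normalized by LOWESS. From the intensity medians, the background was corrected with normexp (offset 50) with limma 3.58.1 (R 4.3.3), after which control spots were dropped, outlier spots became missing values, and loess was run within arrays. Repeated spots were averaged. Probes that passed the scanner's background mark in Cy5 on 4 or more of 8 arrays were fitted with lmFit and eBayes, with Benjamini-Hochberg adjustment. The analysis of variance for microarrays that the study's methods name was replaced by limma. Summaries were made in Python 3.11.15 with pandas 2.3.3.

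RefSeq accessions were looked up in a gene table of GRCm38.p6, which named 27235 of 28685 such probes (94.9%). The array design gives mm9 positions, so no gene positions are given beyond those of the promoter windows, which RefSeq supplies on GRCm38.p6 for 6 of the 8 genes. The brightest tested probe stood for a gene. The members and all gene lists were chosen with earlier results of these data known. The text names every member with all its probes, and in each list up to 3 genes without overlap or, with none, the gene with the widest difference. In data simulated for the comparison of BaP with control over 32600 probes, the fit recovered 83 of 100 probes changed by 1 on the log2 scale and 100 of 100 changed by 2, with 3 false calls. The simulated noise was independent between probes, and no change as small as those of the members was simulated. Recovery at the size of the member differences is therefore not known from it. Alternatives covered background, scaling, filter, channel, blocks, test, probe choice, labels and each mouse left out. Each mouse is 1 array, and their number limits the precision.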

Additional observations from a re-analysis of the deposited data

Results flagged for a closer look

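In 54 groups of 4 mice, over the member probes and the named pathway genes, 1 mouse lay apart from the other 3 by Dixon's ratio of gap to range past its 95% critical value in 5, where chance gives about 1 in 20, or 2.7. On the third *Bdh1* probe control mouse 1 was at 0.50 while the other control mice were at 0.90 to 0.93 (ratio 0.934). *Aacs* in BaP mouse 2 was at 0.03, below the 0.28 to 0.32 of the other exposed mice (ratio 0.866). *Plin4* in BaP mouse 4 was at -1.60, below the -1.001 to -0.95 of the others (ratio 0.923). *Eci2* in control mouse 4 was at -0.78, above the -0.90 to -0.88 of the others (ratio 0.857), and *Ucp2* in control mouse 2 was at -1.13, below the -0.83 to -0.79 of the others (ratio 0.888).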

How the results depend on the processing

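Under the source names in place of the titles, 0 probes were called and 0 member probes were without overlap. The calls over all probes, 3 as reported, were 0 with Agilent's processed signals and within either slide row, and 5 without the filter on dim probes or with Cy5 alone. With 1 mouse left out they were 1 to 3, and 1 without control mouse 1, 3 or 4 or BaP mouse 2. The member probes without overlap, 3 as reported, were 5 within slide row 1, 6 within row 2, and 2 with Agilent's processed signals, median centering, the authors' log2 ratios or outlier spots kept, where the third *Bdh1* probe overlapped. It also overlapped with Cy5 alone, where *Oxct1* did not. With 1 mouse left out they were 3 to 5, and the 5 without BaP mouse 1 were the *Bdh1* probes, the brightest *Cpt2* probe and *Angptl4*. The median difference of the 8 genes was 0.32 with median centering, which moved the median of all tested probes to 0.17. That centering also put *Oxct1* (-0.26), *Acat1* (-0.70) and *Acadm* (-1.26) lower against the reference in control mice, the first 2 with their sign turned. With a replicate block the median was 0.05 and 3 probes were called. Deviations of same-numbered mice correlated at -0.37 to 0.04, which cannot show whether the numbers pair the mice. Of the alternatives other than the source names, the difference kept its sign for every *Bdh1* probe (0.07 to 0.54), the brightest probes of *Cpt1a* (0.13 to 0.59) and *Cpt2* (0.23 to 0.63), *Oxct1* (0.02 to 0.32) and *Angptl4* (-0.61 to -0.19), and changed it in some for *Acat1*, *Acadm*, *Pdk4* and the second probes of *Cpt1a* and *Cpt2*. The causes were not tested. The second *Cpt2* probe (-0.01 to 0.40) was well above background on 7 arrays.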
